A study of Mus musculus with 8 samples.

Results

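The genes described here encode subunits of the last steps of oxidative phosphorylation: complex III, cytochrome c, complex IV and ATP synthase. They were chosen by name. The members are the nuclear genes whose symbols begin with Uqcr, Atp5, Cox4, Cox5, Cox6, Cox7 or Cox8, together with Cyc1 and Cycs, and without Cox7a1 and Cox8b, forms found mainly in brown fat and muscle. Of the 19938 genes measured with a probe set of their own, 42 are members: 9 of complex III, 1 for cytochrome c, 15 of complex IV and 17 of ATP synthase. The rule uses names and, to pick 1 probe set for each gene, the mean intensity over all glands, but the group was proposed with earlier results of these data known.

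Electrons that enter the respiratory chain are passed from ubiquinol to cytochrome c by complex III, and from cytochrome c to oxygen by complex IV. Both complexes pump protons out of the mitochondrial matrix, and ATP synthase makes ATP as the protons flow back through its membrane ring. Each complex is built from a few subunits that carry out the reaction and many small ones around them, and several subunits of complex IV exist in tissue-specific forms. In the mammary gland most of these genes are active in the ducts, in the fat around them and in other cells with mitochondria.

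RNA came from the mammary glands of 8 virgin, untreated female mice at 5 weeks of age, of mixed C57BL/6 X FVB background, one gland and one Affymetrix Gene 1.0 ST array per mouse. The comparison asks what the loss of Sox9, a transcription factor of epithelial progenitor cells and cartilage, does to the gland at puberty. In 4 mice both Sox9 alleles were floxed (MMTV-Cre;Sox9flox/flox), and in the 4 controls 1 allele was floxed and the other was wild type (MMTV-Cre;Sox9+/flox). All 8 carried MMTV-Cre, a recombinase driven by a mammary tumour virus promoter and active in mammary epithelium, so the controls too had Cre and could lose 1 allele. Tissue was taken from the fourth gland next to its lymph nodes, and it held ducts along with fat, stroma and immune cells. In such bulk tissue a change in the number of cells of a type and a change in RNA per cell cannot be told apart.

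Intensities are on a linear scale after quantile normalization. Values for single glands are given in the order of replicates 1 to 4, and differences are Sox9flox/flox minus Sox9+/flox of log2(intensity + 16) with the standard error from limma (n = 4 glands per genotype). The deposited medians of the arrays lay between 159 and 178. Sox9 itself read 424, 448, 401 and 366 in the Sox9+/flox and 298, 356, 287 and 351 in the Sox9flox/flox glands, without overlap. Its difference was -0.33 ± 0.091 (2-sided exact permutation p = 0.0286, the smallest that 70 assignments allow), and its adjusted p of 0.256 missed the threshold of 0.05. The epithelial markers of the gland were present: the summed intensity of 10 luminal genes, among them Krt8, Krt18 and Epcam, lay between 11484 and 14219 in Sox9flox/flox and between 11645 and 14212 in Sox9+/flox glands. Over all genes 8 passed an adjusted p of 0.05, which is 0.0401% of those tested. That count moved to 2 without Sox9+/flox replicate 4 or Sox9flox/flox replicate 4, to 4 without Sox9+/flox replicate 1 or Sox9flox/flox replicate 1, and to 21 without Sox9flox/flox replicate 3.

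None of the 42 members passed that threshold in limma's test with Benjamini-Hochberg adjustment over all genes. Most members were slightly higher in the glands with both Sox9 alleles floxed. A positive difference was found for 34 members (81%) and a negative one for 8, where 47.4% of all genes had a positive difference. The median difference of the members was 0.091, against -0.0066 over all genes, and single members lay between -0.16 for Cox6a2 and 0.30 for Cycs. At an unadjusted p under 0.05 there were 9 members, or 21.4% of the 42, all with higher values in Sox9flox/flox glands. Among all genes 10.3% were under it, 4.81% with higher and 5.46% with lower values. In 7 members (16.7%) every Sox9flox/flox gland read above every Sox9+/flox gland, where 2.74% of all genes did so, and no member showed the opposite, which 3.16% of all genes did. Those 7 were Uqcrc1, Uqcrc2, Uqcrfs1, Cyc1, Cycs, Atp5pb and Atp5c1. The member counts are over genes that share the same 8 glands, so they are not independent of each other.

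The count at an unadjusted p under 0.05 depended on single glands. It was 5 without Sox9+/flox replicate 3, where 3.92% of all genes were under it with higher values. Without Sox9flox/flox replicate 4 it was 11, where 5.05% of all genes were. In the latter case 12 members were without overlap. Groups of fewer glands come apart more easily, and the share of all genes without overlap was not counted there. With both Sox9+/flox replicate 3 and Sox9flox/flox replicate 1 left out, the glands at the lower and upper end of respiratory gene expression, 1 member remained under 0.05, which was Cycs (difference 0.24, adjusted p = 0.636 in limma). In that setting 3.03% of all genes were under 0.05 with higher values. There 26 members had a positive difference, and the median over the members was 0.036. These glands stand at the ends of the members' own mean, so leaving them out had to lower the mean difference of the members. The drop is therefore no independent check.

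**Figure D1:**
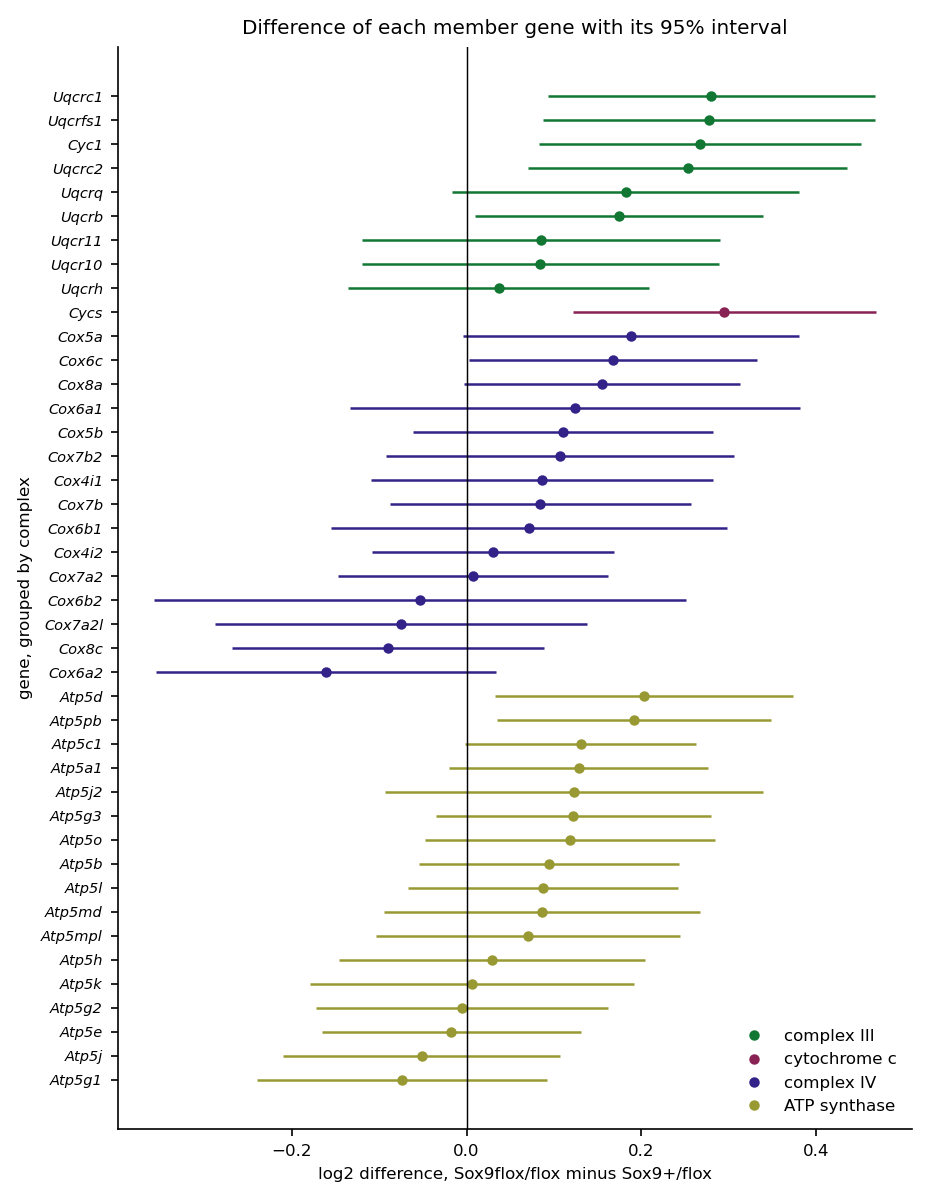
Log2 difference of each of the 42 genes (horizontal axis, Sox9flox/flox minus Sox9+/flox) with its 95% interval from limma, grouped and coloured by complex (n = 4 glands per genotype). All 9 complex III genes and Cycs lie to the right of 0, while complex IV and ATP synthase have genes on both sides. None of the genes passed an adjusted p of 0.05.

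Complex III had the highest median difference of the 3 complexes. All 9 genes had higher means in Sox9flox/flox glands, with a median of 0.18, and 5 had an unadjusted p under 0.05. That is 55.6% of the complex, where 4.81% of all genes were under that p with higher values. The 4 genes for the catalytic and core proteins stood above the small subunits, with a median of 0.27 against 0.085. The difference between these medians was not tested.

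Uqcrc1 encodes a core protein that faces the matrix. It read 2453, 2359, 2162 and 2604 in Sox9+/flox glands and 3270.5, 2839.7, 2921 and 2625 in Sox9flox/flox glands. The groups did not overlap, but the highest control and the lowest Sox9flox/flox gland, both replicate 4, were close. The difference was 0.28 ± 0.085 (95% interval 0.093 to 0.47), or 21.5% higher on the offset scale (adjusted p = 0.288 in limma).

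Uqcrc2, the partner core protein, read 3379.9, 3259, 2701 and 3193 in the controls against 4003, 3721, 3481 and 3708 in Sox9flox/flox glands. All Sox9flox/flox glands were above all controls, and control replicate 3 was the lowest of the 8. Its difference was 0.25 ± 0.083 (95% interval 0.070 to 0.44, adjusted p = 0.317 in limma).

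The nucleus encodes 2 catalytic subunits of the complex. Uqcrfs1, the Rieske iron-sulphur protein that takes electrons from ubiquinol, read 999, 932, 796 and 1023 in Sox9+/flox and 1178, 1194, 1092 and 1081 in Sox9flox/flox glands. Cyc1, cytochrome c1, which hands the electrons to cytochrome c, read 1789.6, 1719.6, 1509 and 1615 in Sox9+/flox and 2202, 2091, 1903 and 1808 in Sox9flox/flox glands. In both genes the groups did not overlap and control replicate 3 was lowest. The differences were 0.28 ± 0.086 for Uqcrfs1 (adjusted p = 0.295) and 0.27 ± 0.083 for Cyc1 (adjusted p = 0.297, both in limma). The third catalytic subunit, cytochrome b, is encoded by mitochondrial DNA and was not measured with a probe set of its own.

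Among the 5 small subunits Uqcrb alone had an unadjusted p under 0.05 (difference 0.17 ± 0.075, adjusted p = 0.466 in limma). Its glands read 3174, 2884, 2875 and 2779 in Sox9+/flox and 3466, 3329, 2969 and 3474 in Sox9flox/flox, with overlap. Uqcrq had a similar difference with a wider error, 0.18 ± 0.090. Uqcr11 differed by 0.085 ± 0.093 and Uqcr10 by 0.085 ± 0.093. Uqcrh, the hinge protein between cytochrome c1 and cytochrome c, differed by 0.037 ± 0.078, with a 95% interval of -0.14 to 0.21.

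Cycs encodes the cytochrome c of somatic cells, the mobile carrier between complexes III and IV, which also takes part in apoptosis. It had the highest difference of the 42 genes. Its values were 2846, 2428, 2304 and 2337 in Sox9+/flox and 3174, 2943, 2938 and 3089 in Sox9flox/flox glands. The groups did not overlap, and control replicate 1 was the highest control, close to the lower Sox9flox/flox glands. The means were 3036 ± 115 (SD, n = 4) in Sox9flox/flox and 2479 ± 250.1 (SD, n = 4) in Sox9+/flox glands. The difference was 0.30 ± 0.079 (95% interval 0.12 to 0.47, adjusted p = 0.246 in limma). The table holds 3 probe sets for Cycs, and their differences lay between 0.30 and 0.33. The third was much dimmer, with means of 97.5 and 74.1, and its groups overlapped.

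**Figure D2:**
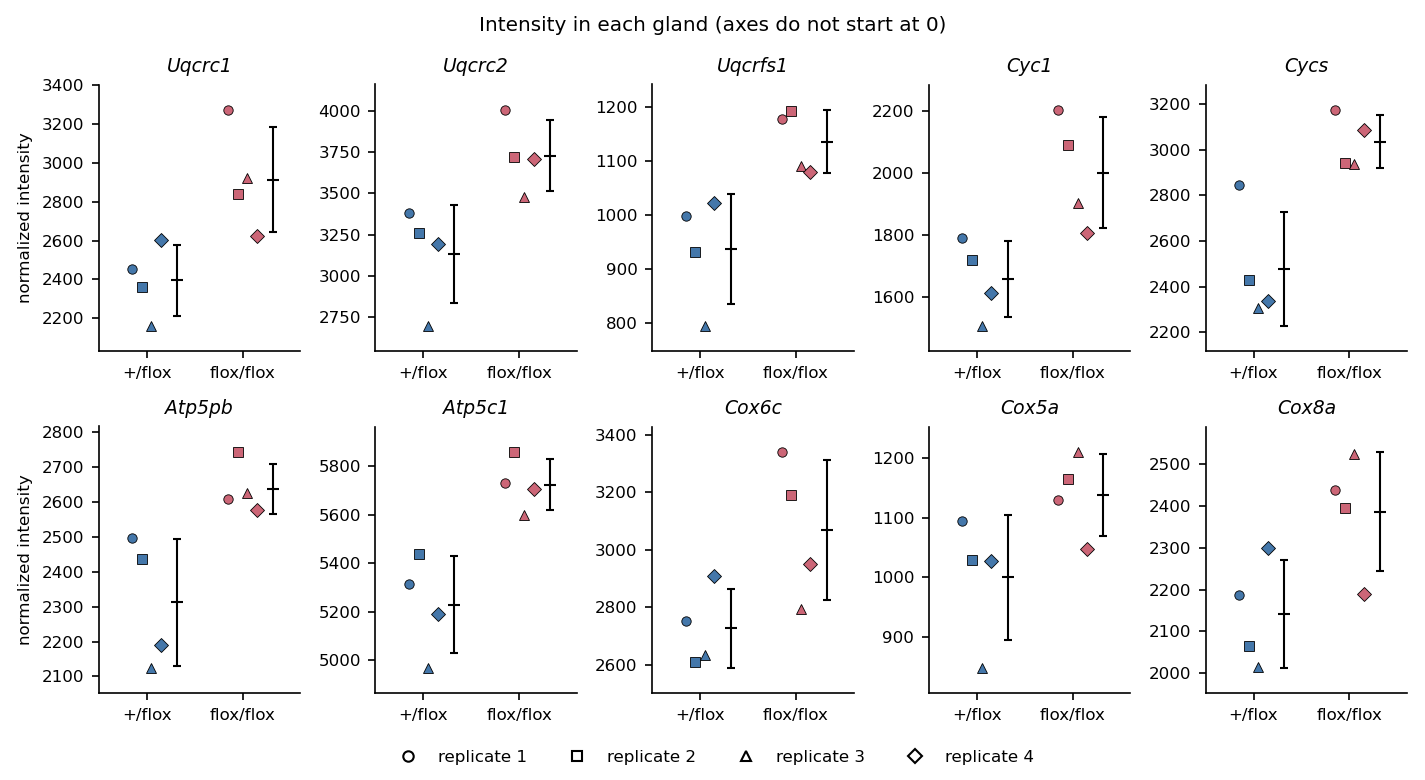
Normalized intensity of 10 genes in each gland (vertical axes, which do not start at 0), with Sox9+/flox at left and Sox9flox/flox at right in each panel. Marker shapes give the replicate number, and the bar at the side is the mean ± SD of 4 glands. In Uqcrc1, Uqcrc2, Uqcrfs1, Cyc1, Cycs, Atp5pb and Atp5c1 all Sox9flox/flox glands lie above all controls, while in Cox6c, Cox5a and Cox8a the groups overlap.

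The promoters of the genes without overlap were read for the motifs of factors known to drive respiratory genes, as a description of what stands before these genes. RefSeq windows of 300 bases (build GRCm38.p6, from 250 before to 50 after the start of the gene) were matched for 31 of the 42 members by gene identifier. The sequences run 5′ to 3′ over the 250 bases before the start, with matches in capitals. In Cycs (chr6:50566570-50566819, minus strand) the capitals mark a cAMP response element, TGACGTCA, beginning 169 bases before the start, and a CCAAT box at 31 bases before it. In Uqcrfs1 (chr13:30545317-30545566, minus strand) they mark a cAMP response element at 29 bases before the start. In Atp5pb (chr3:105959264-105959513, minus strand), which encodes a stalk subunit of ATP synthase, they mark GC boxes at 227 and 71 bases before the start, the former on the opposite strand. For Uqcrc1 the stretch shown holds 30 bases downstream of the start (chr9:108936668-108936697, plus strand). The capitals mark a match to the consensus of nuclear respiratory factor 1 (NRF1) that begins at base 30. The 250 bases before the start of Uqcrc1 held no match. Not shown are a GC box of Cycs at base 32 after the start, and Atp5c1. The 2 windows of Atp5c1 overlap and hold the same CCAAT box, on the opposite strand, at 162 and at 240 bases before their starts. The second window also holds an NRF1 match at 18 bases before its start.
Cycs: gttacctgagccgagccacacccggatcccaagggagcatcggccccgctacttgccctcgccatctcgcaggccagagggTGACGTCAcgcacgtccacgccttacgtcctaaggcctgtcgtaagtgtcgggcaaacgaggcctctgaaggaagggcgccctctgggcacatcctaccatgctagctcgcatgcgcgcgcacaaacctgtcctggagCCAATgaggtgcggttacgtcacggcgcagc
Uqcrfs1: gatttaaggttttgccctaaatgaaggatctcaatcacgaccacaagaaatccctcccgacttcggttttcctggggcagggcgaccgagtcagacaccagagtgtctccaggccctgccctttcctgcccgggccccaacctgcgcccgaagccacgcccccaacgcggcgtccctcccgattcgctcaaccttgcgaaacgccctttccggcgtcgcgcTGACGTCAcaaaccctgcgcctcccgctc
Atp5pb: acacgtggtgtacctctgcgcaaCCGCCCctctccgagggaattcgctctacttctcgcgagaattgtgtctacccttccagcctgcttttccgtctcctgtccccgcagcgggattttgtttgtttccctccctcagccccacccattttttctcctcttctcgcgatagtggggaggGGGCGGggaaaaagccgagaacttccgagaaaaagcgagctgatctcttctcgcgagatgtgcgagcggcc
Uqcrc1: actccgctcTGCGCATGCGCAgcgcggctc

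The same motifs were counted on both strands in the windows of all members that have one and of 15562 measured genes. The NRF1 consensus, with free pyrimidine and purine positions, was found in 3 of 31 members (9.68%: Atp5c1, Atp5g2 and Uqcrc1) and in 2.22% of genes. Only full matches were counted. The run ctcgcatgcgcg in the Cycs sequence above differs from this form at a single letter, so Cycs was not counted. Looser forms were not searched. The ETS core CCGGAAG, which the GABP factor also reads, was in 11 members (35.5%) and 13.6% of genes. None of these 11 is among the 5 of the 7 genes without overlap that have a window, while Cyc1 and Uqcrc2 have none. CCAAT was in 18 members (58.1%) and 41.7% of genes, and GGGCGG in 13 members (41.9%) and 53.0% of genes. TGACGTCA was found in Cycs and Uqcrfs1 only (6.45% of members, 2.72% of genes). TATAAA was found in 3 members (9.68% against 13.6% of genes), and AACAATG, the core that SOX proteins bind, in Cox7a2 alone (3.23% against 3.41% of genes). The median GC content of the windows was 56.3% for members and 57.5% for all genes. The motifs, the NRF1 form included, were chosen after the windows were read, so these shares are a description and no test. A match is a run of letters and does not show that a factor is bound there.

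Complex IV had a lower median than complex III, a difference that was not tested. Of its 15 genes 11 were higher and 4 lower in Sox9flox/flox glands, with a median of 0.084, 1 gene at an unadjusted p under 0.05 and none without overlap. That 1 gene is 6.67% of the complex, near the 4.81% of all genes under that p with higher values. All 9 genes for subunits found in most tissues were on the positive side, with a median of 0.11. The 5 tissue-restricted forms split into 2 positive and 3 negative with a median of -0.053. The remaining gene, Cox7a2l, was put in neither class and was negative (-0.075). Without Sox9+/flox replicate 3 and Sox9flox/flox replicate 1 the median of the complex was -0.015, below 0. These glands were the lowest and the highest in the mean of the complex, so leaving them out had to lower its mean difference.

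Cox6c had the smallest p of the complex. It read 2753, 2609, 2635 and 2909 in Sox9+/flox and 3339.9, 3189.5, 2795 and 2950.1 in Sox9flox/flox glands, with Sox9flox/flox replicates 1 and 2 high and replicate 3 below the highest control. The difference was 0.17 ± 0.075 (95% interval 0.0026 to 0.33, adjusted p = 0.48 in limma). The second probe set of Cox6c differed by 0.11 ± 0.080. With its probe sets averaged, the unadjusted p of Cox6c was 0.091 in limma. Cox5a, a subunit on the matrix side, read 1094, 1029.7, 848 and 1027 in the controls and 1129, 1165, 1210.4 and 1048 in Sox9flox/flox glands. Control replicate 3 was far below the other controls, and without it the difference of 0.19 ± 0.087 was 0.11. Cox5b, its neighbour in the complex, differed by 0.11 ± 0.078.

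Subunits with more than 1 gene allow the common and the restricted form to be set beside each other, each by its own difference. Of subunit 8, the common Cox8a read 2186, 2064, 2016 and 2301 in Sox9+/flox and 2438, 2395, 2523 and 2190.0 in Sox9flox/flox glands, a difference of 0.15 ± 0.072 (adjusted p = 0.493 in limma) with overlap at replicate 4. The testis form Cox8c read 137, 132, 136 and 161 against 140.3, 117, 139.6 and 131, a difference of -0.090 ± 0.081. Of subunit 6A, the common Cox6a1 read 2488, 2089, 1962 and 2659.7 in the controls and 2896, 2561, 2431 and 2130.2 in Sox9flox/flox glands (0.12 ± 0.12).

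Cox6a2, the heart and muscle form of that subunit, had the lowest difference of all members. It read 155, 163, 189 and 139 in Sox9+/flox and 151, 137, 133 and 146 in Sox9flox/flox glands, with overlap. The difference of -0.16 ± 0.088 had a 95% interval of -0.36 to 0.034 (adjusted p = 0.568 in limma). Genes of skeletal muscle lay on the same side: of 12 muscle markers 10 had a negative difference, with a median of -0.054, and 1 was under an unadjusted p of 0.05 (Tnnt3, -0.23 ± 0.088). Their summed intensity was between 1913 and 2065 in Sox9flox/flox and between 2035 and 2357 in Sox9+/flox glands. The mean intensity of the markers ran from 60.4 for Myh1 to 524 for Acta1. Cox6a2 and many of the markers were dim, and without detection calls their values may be background. The part of muscle in the value of Cox6a2 was not tested.

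Of subunit 4, which binds ATP as a regulator, the common Cox4i1 read 1906, 1964, 1755 and 2074 in the controls and 2308, 2163, 1907 and 1825 in Sox9flox/flox glands (0.087 ± 0.089). The alternative form Cox4i2 read 249.6, 236, 255 and 259.9 against 248, 250.0, 271 and 255 (0.030 ± 0.063). Neither had groups apart.

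Of subunit 6B, Cox6b1 read 2384, 2196, 2166 and 2618 in Sox9+/flox and 2875, 2615, 2239.7 and 2152 in Sox9flox/flox glands (0.071 ± 0.10), and the testis form Cox6b2 109.6, 111, 132 and 172 against 152, 128, 113 and 107 (-0.053 ± 0.14). Of subunit 7B, Cox7b read 1801, 1709.8, 1563 and 1826 against 2012, 1784, 1844 and 1682 (0.084 ± 0.078), and the testis form Cox7b2 32.6, 40, 25.9 and 31.6 against 36.3, 36.3, 39.3 and 32.2 (0.11 ± 0.090). All 4 overlapped between genotypes. The testis forms were dim, and the deposited table gives no detection calls, so their values may be background.

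Cox7a2, the common form of subunit 7A, had nearly equal means. It read 758, 694, 674 and 777 in Sox9+/flox and 751, 761, 709.7 and 694 in Sox9flox/flox glands, a difference of 0.0072 ± 0.070 with a 95% interval of -0.15 to 0.16. Cox7a2l, a related protein that joins complexes III and IV into supercomplexes, read 670.1, 767, 648 and 784 against 772, 722, 623 and 607. Its difference of -0.075 ± 0.097 was negative in both of its probe sets, with a 95% interval of -0.29 to 0.14. The forms left out by the rule were higher in Sox9flox/flox glands: Cox7a1 by 0.43 ± 0.18 (adjusted p = 0.461) and Cox8b by 0.38 ± 0.15 (adjusted p = 0.407 in limma). Cox7c shares its 3 probe sets with the symbol Gm12338 and so is not a member. Their differences lay between 0.17 and 0.18 without overlap, and the 2 symbols cannot be told apart.

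Of the 17 ATP synthase genes 13 were higher and 4 lower in Sox9flox/flox glands, with a median of 0.088. Of these 2 had an unadjusted p under 0.05, Atp5pb and Atp5d, and 2 were without overlap, Atp5pb and Atp5c1. Each count is 11.8% of the 17. Of all genes 4.81% were under that p with higher values, and 2.74% were without overlap in the same direction. The 5 genes of the catalytic F1 head and its central stalk had a median of 0.13, the 4 of the peripheral stalk 0.074, the 5 small membrane subunits 0.086 and the 3 genes of the rotating c-ring -0.0049.

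Atp5pb encodes subunit b, the beam of the peripheral stalk that holds the head still while the ring turns. It read 2495, 2436, 2125 and 2191 in Sox9+/flox and 2608, 2741, 2624 and 2577 in Sox9flox/flox glands. The groups did not overlap, and the Sox9flox/flox glands lay closer together than the controls, with an SD of 72 against 181. The difference was 0.19 ± 0.071 (95% interval 0.035 to 0.35, adjusted p = 0.389 in limma). The second probe set of Atp5pb, with means of 1318 and 1196, differed by 0.14 ± 0.078, and its groups overlapped.

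Other genes of that stalk had smaller estimates. Atp5o, the OSCP subunit at its top, differed by 0.12 ± 0.075, Atp5h, subunit d, by 0.029 ± 0.079, and Atp5j, coupling factor F6, by -0.051 ± 0.072.

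In the central stalk, which turns inside the head, Atp5c1 encodes the gamma subunit. It read 5315, 5438, 4968 and 5192 in Sox9+/flox and 5732, 5858, 5600.3 and 5706 in Sox9flox/flox glands. No values overlapped, and the difference was 0.13 ± 0.060 (adjusted p = 0.49 in limma). Atp5d, the delta subunit, read 2411, 2256, 2197 and 2542 in the controls and 2837, 2620.3, 2918 and 2469.7 in Sox9flox/flox glands. Here only replicate 4 broke the order, being high among the controls and low among the Sox9flox/flox glands. The difference was 0.20 ± 0.077 (95% interval 0.033 to 0.37, adjusted p = 0.406 in limma). Atp5e, the epsilon subunit of the same stalk, differed by -0.018 ± 0.067. Its sign turned to 0.024 without normalization between arrays and to 0.023 with median centring. The head itself differed by 0.13 ± 0.067 in Atp5a1, the alpha subunit, and by 0.095 ± 0.067 in Atp5b, the catalytic beta subunit.

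The c-ring subunit has 3 genes, Atp5g1, Atp5g2 and Atp5g3, which encode the same mature protein with different import signals. Atp5g1 read 434, 397, 459 and 443 in Sox9+/flox and 399, 394, 460.2 and 392 in Sox9flox/flox glands, a difference of -0.074 ± 0.075. Sox9flox/flox replicate 3 stood above its 3 fellows, and without it the difference was -0.13. Atp5g2 read 1509, 1430.4, 1420.4 and 1669 against 1413, 1527, 1621 and 1444, a difference of -0.0049 ± 0.076 whose sign turned without normalization between arrays, under median centring and with array weights.

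Atp5g3 was on the positive side. It read 1832, 1721, 1766 and 1881 in Sox9+/flox and 1816, 2149, 1882 and 2007 in Sox9flox/flox glands, a difference of 0.12 ± 0.071 (adjusted p = 0.595 in limma). The small membrane subunits, which shape the dimer of the enzyme and the folds of the inner membrane, all had positive differences, between 0.0066 for Atp5k, subunit e, and 0.12 for Atp5j2, subunit f. Atp5l, subunit g, differed by 0.088 ± 0.070, and Atp5md and Atp5mpl by 0.086 ± 0.082 and 0.070 ± 0.079.

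High and low values of the members gathered in a few glands. The lowest of the 8 values fell on Sox9+/flox replicate 3 in 24 of the 42 genes, and on Sox9flox/flox replicate 4 in 7. The highest fell on Sox9flox/flox replicate 1 in 16 genes, on Sox9+/flox replicate 4 in 8, and on Sox9flox/flox replicates 2 and 3 in 7 each. By genotype, 31 genes had their highest value in a Sox9flox/flox gland and 31 had their lowest in a Sox9+/flox gland. The range over the 8 glands had a median of 0.36 on the log2 scale. In 15 genes at least 3 Sox9flox/flox glands lay above the highest control. These counts were made for the members only, so whether the same glands stand out among all genes was not tested.

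As a mean over the 42 genes, the deviation from the 8-gland mean was 0.0015, -0.068, -0.14 and 0.019 in Sox9+/flox and 0.12, 0.075, 0.031 and -0.038 in Sox9flox/flox glands. The groups overlapped, since replicate 4 of the controls was above replicate 4 of the Sox9flox/flox glands. For the 4 catalytic and core genes of complex III the deviations were -0.045, -0.11, -0.31 and -0.072 in Sox9+/flox glands. In Sox9flox/flox glands they were 0.25, 0.16, 0.082 and 0.044. The groups were apart, which had to follow, since each of these 4 genes was without overlap. For complex IV they were -0.014, -0.053, -0.11 and 0.078 against 0.14, 0.043, 0.00057 and -0.079, with control replicate 4 second only to Sox9flox/flox replicate 1. For ATP synthase they were 0.027, -0.053, -0.11 and -0.0090 against 0.072, 0.073, 0.031 and -0.029.

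**Figure D3:**
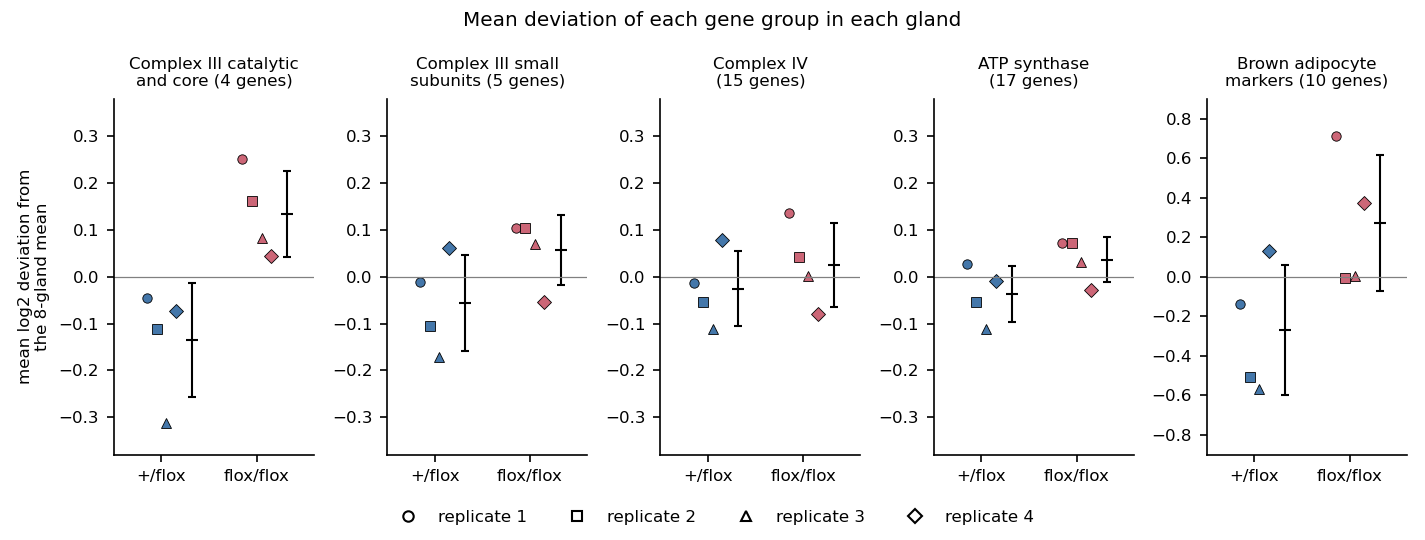
Mean log2 deviation from the 8-gland mean (vertical axis) for 4 groups of members and for 10 brown adipocyte markers, in each gland, with mean ± SD at the side (n = 4 glands per genotype). The genotypes are apart for the catalytic and core genes of complex III, which follows from each of these genes being without overlap. They overlap in the other panels. The last panel has a wider axis.

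Markers of brown adipocytes, cells rich in mitochondria that are found in young fat pads, were also higher on average in Sox9flox/flox glands. Of 10 measured markers 9 were higher in Sox9flox/flox glands, with a median of 0.42, though Prdm16 was nearly equal (0.00065 ± 0.091). Zic1 was lower (-0.075 ± 0.086). An unadjusted p under 0.05 was found for 5 (Elovl3, Cox8b, Dio2, Cox7a1 and Otop1), none of them past the adjusted threshold. Of all genes 4.81% were under that p with higher values. Elovl3, a fatty acid elongase of brown fat, read 191, 58.2, 43 and 288 in Sox9+/flox and 567, 457, 292 and 680.3 in Sox9flox/flox glands, without overlap. Its difference was 1.94 ± 0.47 (95% interval 0.90 to 2.98, adjusted p = 0.212 in limma), the highest of the list. The summed intensity of the list lay between 7737 and 14505 in Sox9flox/flox and between 5365 and 9830.1 in Sox9+/flox glands, so these sums overlapped, and none of the markers was at 0. Ucp1, the uncoupling protein that defines these cells, differed by 0.58 ± 0.36 with a 95% interval of -0.23 to 1.38. The mean deviation of the list was -0.14, -0.51, -0.57 and 0.13 in Sox9+/flox and 0.71, -0.0088, 0.0052 and 0.37 in Sox9flox/flox glands. Its order was not that of the members throughout: Sox9flox/flox replicate 4 was second highest for the brown markers and below the mean for the members. The part of brown adipocytes in the differences of the members was not tested.

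White adipocyte markers had 4 of 10 positive differences with a median of -0.0078, and summed to between 41419 and 48820.4 in Sox9flox/flox and between 41513 and 48101 in Sox9+/flox glands. Fibroblast markers had 5 of 8 negative differences with a median of -0.16, and summed to between 32440.3 and 38314 in Sox9flox/flox and between 35269.6 and 45594 in Sox9+/flox glands. The fibroblast list had 2 genes at an unadjusted p under 0.05, both collagens with lower values in Sox9flox/flox glands (Col3a1, -0.27 ± 0.088, and Col1a1, -0.27 ± 0.12). The same held for 1 endothelial gene, the tight junction protein Cldn5 (-0.56 ± 0.18), and 1 skin gene, Krt1 (-0.18 ± 0.064). Krt1 and Krt10 (-0.11 ± 0.066), keratins of the epidermis, were lower in every Sox9flox/flox gland than in every control. None of these passed an adjusted p of 0.05. Of all genes 5.46% had an unadjusted p under 0.05 with lower values. Luminal markers had a median of -0.026, basal ones 0.12, macrophage ones 0.074, endothelial ones -0.020 and skin ones -0.090. The 9 lymphocyte markers summed to 3247 in Sox9+/flox replicate 2 and to between 956 and 1150 in the 7 other glands (median difference -0.25). Of the erythroid list only Alas2 and Slc4a1 were measured, with 1 positive and 1 negative difference. The part of these cell types in the result was not tested.

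Other genes of the pathway, taken from lists by function, lay mostly on the same side as the members, and none of those listed passed an adjusted p of 0.05. Over all genes 47.4% had a positive difference, and 4.81% had an unadjusted p under 0.05 with higher values. Of the factors that assemble complexes III and IV and ATP synthase, 27 of 31 measured had a positive difference, with a median of 0.086 and 4 at an unadjusted p under 0.05. Among them were Lyrm7 (0.23 ± 0.081), which helps insert the Rieske protein encoded by Uqcrfs1, and Atpaf2 (0.23 ± 0.090), which assembles the F1 head. All 4 subunits of complex II were positive with a median of 0.12, led by Sdhd (0.23 ± 0.10), and so were all 6 measured core subunits of complex I with a median of 0.13, led by Ndufs1 (0.19 ± 0.080) and Ndufs7 (0.21 ± 0.091).

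The 2 mitochondrially encoded genes with a probe set of their own, COX2 and ND3, differed by 0.021 ± 0.058 and -0.019 ± 0.062, close to 0. Of 13 genes for protein import and inner membrane structure all were positive, with a median of 0.11, among them Timm23 (0.23 ± 0.073), the import channel, and Hspa9 (0.22 ± 0.078), the chaperone that pulls proteins through it. Of 8 carriers, channels and uncoupling proteins all were positive with a median of 0.14, including Vdac2 (0.23 ± 0.061) of the outer membrane and Slc25a4 (0.15 ± 0.062), which exchanges ADP for ATP.

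Of 14 regulators of mitochondrial genes 10 were positive with a median of 0.053. Ppargc1a, the coactivator that switches on respiratory genes in brown fat and muscle, read 189, 155, 149 and 191 in Sox9+/flox and 306, 245, 204 and 174 in Sox9flox/flox glands. Its difference was 0.39 ± 0.15 (adjusted p = 0.409 in limma). Tfb2m, a transcription factor of mitochondrial DNA, differed by 0.19 ± 0.080.

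Across 19 other ways to process the values, none of the members measured (42, or 41 without the genes of low mean intensity) passed an adjusted p of 0.05 in any. Members without overlap, 7 as reported, numbered 5 with median centring and 6 with probe sets averaged. The median of complex III stayed above 0 in all 19, and that of ATP synthase too. Cycs had an unadjusted p under 0.05 in all 19, and Uqcrc1, Uqcrc2, Uqcrfs1 and Cyc1 in 18 each, the exception being the setting without Sox9+/flox replicate 3 and Sox9flox/flox replicate 1. Atp5pb did so in 15, Atp5d in 13 and Uqcrb in 11.

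**Figure D4:**
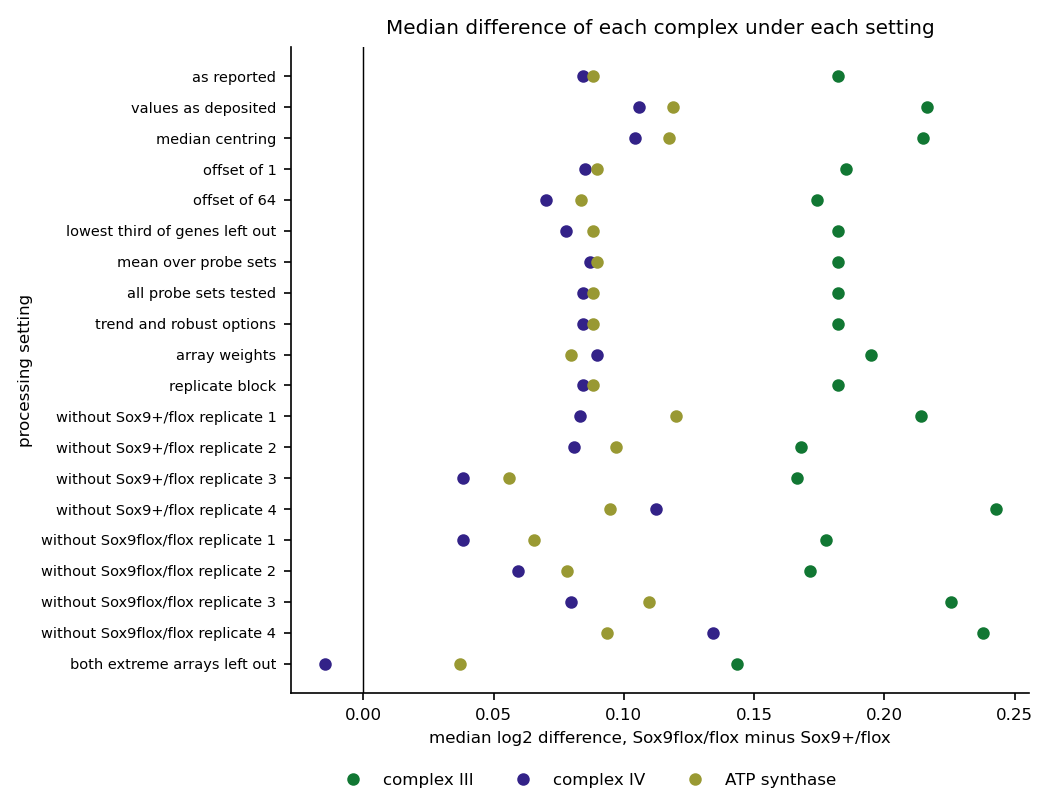
Median log2 difference (horizontal axis, Sox9flox/flox minus Sox9+/flox) of complex III, complex IV and ATP synthase as reported and under each of the 19 other settings (vertical axis). Complex III lies farthest to the right in each setting, and the median of complex IV lies below 0 when both Sox9+/flox replicate 3 and Sox9flox/flox replicate 1 are left out.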

How the data were processed

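The deposited values are linear intensity. Per the submitters' processing notes, the authors used Affymetrix Expression Console 1.0 and its PLIER model, which combines the probes of a probe set. Sources used here do not state which background correction or normalization went with it, and the values come without detection calls. Every per-sample column matched a sample (0 unmatched). Of 35557 probe sets, 21789 had 1 gene symbol in the platform annotation, 1621 several and 12147 none, and those with 1 symbol entered the tests, with the probe set of the highest mean for each of 19938 genes. Among the members, 13 have several probe sets.

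Arrays were quantile normalized over all probe sets as log2(intensity + 16). The offset makes differences of dim genes smaller. Genotypes were compared with limma 3.58.1 (lmFit, eBayes) in R 4.3.3, with Benjamini-Hochberg adjustment over 19938 genes and a threshold of 0.05. Members, lists and tests were chosen with earlier results of these data known, so no list was tested and a pattern here is no independent support of those results. Lists are described by counts and medians.

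The text gives every gland's value for Cycs, for the 3 members of each complex with the smallest p and for subunits with several genes, and names every member with a small unadjusted p or with a negative difference, plus up to 2 genes of each other pathway list with the smallest p. Values of Uqcrc2, Uqcrb, Ppargc1a, the other members and the cell type markers named singly were added after their values were seen. Motifs were searched in RefSeq promoter windows, and the list of motifs, the NRF1 form included, was chosen after the windows were read. The fit was tested on simulated arrays of 19938 genes. It recovered 70% of 50 genes given a log2 change of 0.5 and 98% of 50 given 1, and 4.17% of its calls were false. Smaller changes, such as those of all the members, were not simulated. The noise was drawn separately for each gene, so genes moving together in a gland were not simulated either. No 2 arrays were identical (median absolute log2 differences 0.10 to 0.16). Precision is limited by having 4 arrays a genotype. Alternatives were no normalization between arrays, centring on the median, an offset of 1 or 64, leaving out genes of low mean intensity, averaging probe sets, testing all probe sets, a variance trend with robust moderation, weights for arrays, a block for the replicate number, and arrays left out.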

Additional observations from a re-analysis of the deposited data

Results flagged for a closer look

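In Atp5g1, one of 3 genes for the c-ring subunit of ATP synthase, Sox9flox/flox replicate 3 read 460.2 while its 3 fellows lay between 392 and 399, so this gland stood far from the others of its group. It was the only such case among 84 groups of 4 glands tested, 42 genes in 2 genotypes. Chance alone marks about 1 in 20 groups by this rule.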

How the results depend on the processing

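No member passed an adjusted p of 0.05 in limma under any of the 19 alternatives, and the lowest adjusted p of a member lay between 0.173 and 0.636. The members under an unadjusted p of 0.05 numbered 9 as reported, 5 to 11 with single glands left out, 12 without normalization between arrays, 13 with an offset of 64, 12 without the genes of low mean intensity (41 members measured), and 1 without both Sox9+/flox replicate 3 and Sox9flox/flox replicate 1. Of all genes, 4.81% were under that p with higher values as reported, 3.92% to 5.51% with single glands left out and 3.03% without both named glands. The share was 6.22% without normalization between arrays, 5.17% with an offset of 64 and 6.24% without the genes of low mean intensity. With single glands left out, members without overlap numbered 7 to 12 and those with a positive difference 30 to 37. The median of the members was then 0.054 to 0.13. Groups of fewer glands come apart more easily, and the share of all genes without overlap was not counted in the alternatives. Members without overlap numbered 5 with median centring, 6 with probe sets averaged and 9 without normalization between arrays. The median of complex IV was 0.038 to 0.13 with single glands left out and -0.015 without both named glands. All genes past the adjusted threshold numbered 8 as reported, 18 with median centring, 4 with an offset of 1, 19 with an offset of 64, 3 without the genes of low mean intensity, 1 with all probe sets, 17 with trend and robust options, and 2 to 21 with single glands left out. The causes were not tested.

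Signs turned in some members, from those near 0 up to Cox6a1, whose difference was 0.12 as reported. Without normalization between arrays Atp5e was 0.024 and Atp5g2 0.016. Median centring gave 0.023 for Atp5e and 0.015 for Atp5g2, and array weights 0.0080 for Atp5g2. Without both named glands Atp5h was -0.039, Atp5k -0.068, Cox4i1 -0.015, Cox6a1 -0.020, Cox6b1 -0.040, Cox7a2 -0.041, Cox7b -0.0079 and Uqcrh -0.049. Leaving out both named glands had to lower the mean difference of the members, since they stand at the ends of the members' own mean. With single glands left out, Atp5e lay between -0.058 and 0.017, Atp5g2 between -0.042 and 0.045, Atp5h between -0.016 and 0.071, Atp5k between -0.036 and 0.056, Cox6b1 between -0.0043 and 0.13, Cox6b2 between -0.14 and 0.072, Cox7a2 between -0.027 and 0.040 and Uqcrh between -0.010 and 0.079. In the other members and medians the direction held under all 19 alternatives, or, for Cox7b2, which was not measured without the genes of low mean intensity, under 18.

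With the replicate number as a block, 6 members had an unadjusted p under 0.05, 0 passed the adjusted threshold and 8 genes did. Same-numbered glands deviated together by correlations of -0.20, 0.06, 0.21 and -0.09, and 1 of 4 correlated best with its own number, so the numbers were not taken to pair the glands. Without detection calls, the signal over background of dim members such as Cox7b2, Cox8c and Cox6a2 is unknown.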
